A study of Mus musculus with 6 samples.

Results

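Inguinal white fat (iWAT), a subcutaneous depot, was taken from Zip13-KO and WT mice and examined for 9 genes that mark brown or beige adipocytes, namely Dio2, Kcnk3, Otop1, Aspg, Slc36a2, P2rx5, Tbx1, Tmem26 and Tnfrsf9. The genes were chosen by name from known markers, and their log2 differences between the genotypes on these same arrays had been seen when the list was drawn up. Every probe designed against a RefSeq transcript of each gene was used. All 9 were among the 15302 genes tested, and all 11 of their probes were well above background on all 6 arrays. The WT group had 3 arrays and the Zip13-KO group had 3, each with total RNA of iWAT labelled in 1 colour. In the Zip13-KO mice, exons 6 to 8 of Zip13 (Slc39a13), which encodes a zinc transporter, had been replaced by a Neo-cassette in the germ line, so the gene was lost from every cell type of the tissue. The mice of both genotypes were 10 weeks old, were on a C57BL/6J background after at least 7 generations of backcrossing, and ate powdered food because the knockout mice have few teeth. The labels name a standard food and a high-fat food without giving the one used here, and they give neither the sex of the mice nor whether an array holds 1 mouse or pooled tissue, so p-values measure the spread between arrays, which may be partly technical.

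Brown adipocytes burn fuel to make heat, mainly through the mitochondrial uncoupling protein UCP1, and are packed into the interscapular depot. Beige adipocytes are heat-producing cells that appear within white depots such as iWAT, typically after cold or adrenergic stimulation, in which cyclic AMP turns on genes such as Ucp1, Dio2 and Ppargc1a. The listed genes were used as markers because some are shared by brown and beige cells, whereas Tbx1, Tmem26 and Tnfrsf9 are best known from beige cells of mouse subcutaneous fat. In a bulk tissue, a change in the number of cells of a type and a change in RNA per cell cannot be told apart.

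The RefSeq promoter table of GRCm38.p6 matched 6 of the 9 genes in 8 entries. The upstream 250 bases, 5′ to 3′ on the strand of the gene, are shown for Dio2, which holds the only motif match, for Aspg and Otop1, which had the largest differences between the genotypes, and for Tmem26, which lay lower in Zip13-KO. Capitals mark the cyclic AMP response element, TGACGTCA. The windows are chr12:90739039-90739288 (minus strand) for Dio2, chr12:112106433-112106682 (plus) for Aspg, chr5:38277154-38277403 (plus) for Otop1 and chr10:68723496-68723745 (plus) for Tmem26.
Dio2: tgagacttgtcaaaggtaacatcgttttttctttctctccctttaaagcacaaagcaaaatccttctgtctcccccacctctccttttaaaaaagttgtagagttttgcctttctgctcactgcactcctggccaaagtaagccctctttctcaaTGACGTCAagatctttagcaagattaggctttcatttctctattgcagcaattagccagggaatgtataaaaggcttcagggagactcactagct
Aspg: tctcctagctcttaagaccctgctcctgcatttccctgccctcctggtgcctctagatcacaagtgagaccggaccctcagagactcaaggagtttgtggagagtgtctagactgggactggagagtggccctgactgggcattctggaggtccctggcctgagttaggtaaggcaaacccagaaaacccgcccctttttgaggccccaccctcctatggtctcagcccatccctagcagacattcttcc
Otop1: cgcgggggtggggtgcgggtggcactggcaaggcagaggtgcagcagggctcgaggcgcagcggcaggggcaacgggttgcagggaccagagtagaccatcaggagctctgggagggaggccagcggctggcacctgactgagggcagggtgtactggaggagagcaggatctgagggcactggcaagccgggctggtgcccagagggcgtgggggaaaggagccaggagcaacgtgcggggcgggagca
Tmem26: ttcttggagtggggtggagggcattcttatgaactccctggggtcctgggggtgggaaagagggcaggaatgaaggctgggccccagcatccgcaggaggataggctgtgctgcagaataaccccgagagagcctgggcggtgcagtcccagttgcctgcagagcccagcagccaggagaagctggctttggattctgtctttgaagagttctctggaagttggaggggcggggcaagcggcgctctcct
The element of Dio2 began at position -95 from its transcription start. Windows of 300 bases with 50 after the start were searched on both strands, and this element was present in 588 of all 32851 promoter entries (1.79%). The motifs TTGCGCAA (C/EBP) and TCAAGGTCA (ERR), a spaced direct repeat bound by PPAR and a gapped palindrome bound by EBF, found in 0.183%, 0.423%, 0.0396% and 0.904% of all entries, were in 0 of the 8 entries. These matches describe the letters of the windows and are not shown to be bound.

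The values below are quantile normalized log2 intensities. A gene was called when its adjusted p in limma was under 0.05 and its change exceeded 1.5-fold, and its brightest probe stood for it. By this rule 6 of the 9 marker genes were higher in Zip13-KO, 0 were lower and 3 were not called, where 10.3% of all genes tested were called higher and 8.38% lower. Since the list was drawn up with these differences known, the counts are a description and carry no test. In 7 genes every Zip13-KO array lay above every WT array, as it did in 29.2% of all genes. In 1 gene, Tmem26, every Zip13-KO array lay below, as in 25.9% of all genes, and Tbx1 overlapped. Over all genes, the groups did not overlap in 55.1%.

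As a check of the labels, Slc39a13 was at 11.30, 10.87 and 10.72 on the WT arrays and at 6.76, 6.66 and 6.47 on the Zip13-KO arrays. It was thus lower on every knockout array, by a log2 difference of -4.33 ± 0.17 (SE, adjusted p = 0.00128). Where its probe lies relative to the deleted exons is not given in the sources used here. The 6 arrays were on 1 slide, with WT replicates 1 to 3 and Zip13-KO replicate 1 in one line of it and Zip13-KO replicates 2 and 3 in the other. Between 58.8% and 63.2% of spots were well above background, the number being lower on each Zip13-KO array than on each WT array, and no spot was saturated. Precision is set by how few arrays there are, and an exact permutation test of 3 against 3 cannot give a p below 0.1.

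**Figure D1:**
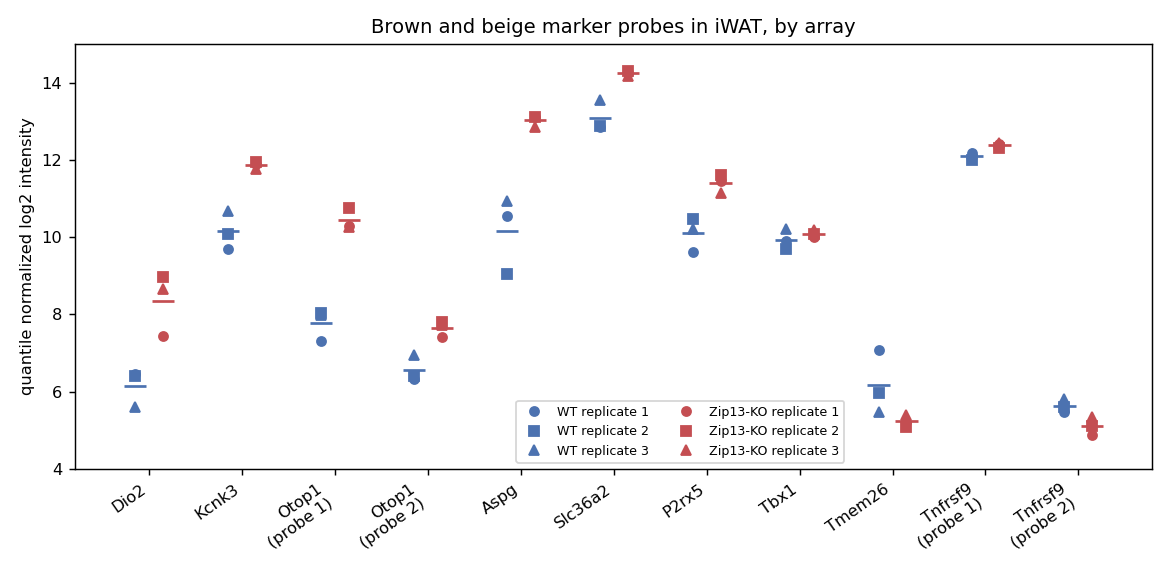
Quantile normalized log2 intensity of the 11 probes of the 9 marker genes on each array. Points are arrays, shapes are replicates and short lines are means of 3 arrays; levels of different probes are not comparable. The Zip13-KO points of Dio2, Kcnk3, Otop1, Aspg, Slc36a2 and P2rx5 lie above all WT points, as do those of the first Tnfrsf9 probe, those of Tmem26 and of the second Tnfrsf9 probe lie below, and those of Tbx1 overlap.

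Dio2 encodes the type 2 deiodinase, which converts the prohormone thyroxine to active thyroid hormone inside the cell and is induced by cyclic AMP in brown fat. The gene lies at chr12:90724552-90739038. Its probe read 6.45, 6.41 and 5.61 on the WT arrays and 7.45, 8.96 and 8.65 on the Zip13-KO arrays. All 3 knockout arrays were above all 3 WT arrays, the lowest by 0.999 over the highest WT array, but Zip13-KO replicate 1 was well under the other two. The log2 difference was 2.19 ± 0.44 (SE), or 4.58-fold. The probe was dim, with processed signals of 93.0, 93.7 and 52.4 in WT and 161, 457 and 374 in Zip13-KO before normalization. With 1 array left out at a time, the difference ran from 1.89 to 2.65. It was smaller with other treatments of the background, at 1.60 with normexp correction and at 1.75 both with no correction and in the deposited value table.

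Kcnk3 (chr5:30588170-30625270) encodes TASK-1, a potassium channel that sets the resting membrane potential. It was at 9.70, 10.07 and 10.68 in WT and at 11.90, 11.96 and 11.77 in Zip13-KO. The knockout arrays were close together, with an SD of 0.10 against 0.49 in WT, and the groups did not overlap. The log2 difference was 1.72 ± 0.24 (SE), or 3.31-fold.

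Otop1 (chr5:38277404-38304217) encodes otopetrin 1, a proton channel first known from the inner ear. Its brighter probe read 7.31, 8.03 and 7.98 in WT and 10.29, 10.75 and 10.26 in Zip13-KO. This was the widest separation among the 9 genes, with 2.24 between the lowest knockout array and the highest WT array. The log2 difference was 2.66 ± 0.23 (SE), or 6.34-fold, which placed Otop1 at rank 13 of the 15302 genes ordered from the most increased. A second probe of the same transcript gave 6.32, 6.40 and 6.96 in WT and 7.41, 7.79 and 7.72 in Zip13-KO. The second probe also separated the groups, yet its log2 difference was 1.08 ± 0.20 (SE), less than the brighter probe gave.

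Aspg (chr12:112106683-112127573) encodes an asparaginase, an enzyme that hydrolyses asparagine to aspartate and ammonia. It was at 10.54, 9.03 and 10.94 in WT and at 13.12, 13.10 and 12.85 in Zip13-KO. Every knockout array was above every WT array by at least 1.92, while WT replicate 2 lay far below the other WT arrays. Aspg had the largest log2 difference of the 9 genes, 2.85 ± 0.48 (SE), or 7.22-fold, at rank 11 of all genes. Of the fits with 1 array left out, that without WT replicate 2 gave the smallest difference, 2.28.

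Slc36a2 (chr11:55158468-55185099) encodes PAT2, a proton-coupled amino acid transporter that serves as a surface marker of brown and beige adipocytes. The probe was at 12.85, 12.87 and 13.56 in WT and at 14.25, 14.31 and 14.18 in Zip13-KO. The knockout arrays were within an SD of 0.06, and WT replicate 3 came nearest to them, at 0.63 below the lowest. The log2 difference of 1.16 ± 0.20 (SE), or 2.23-fold, was the smallest among the 6 genes called.

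P2rx5 (chr11:73155389-73172687) encodes an ATP-gated cation channel that is also a surface marker of brown and beige adipocytes. It read 9.60, 10.47 and 10.21 in WT and 11.47, 11.60 and 11.15 in Zip13-KO. The groups were 0.68 apart at their closest. The log2 difference was 1.31 ± 0.24 (SE), or 2.48-fold.

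Tbx1 (chr16:18580979-18590671) encodes a T-box transcription factor. It was at 9.91, 9.69 and 10.22 in WT and at 9.997, 10.08 and 10.20 in Zip13-KO. All knockout values fell inside the WT range. The log2 difference was 0.15 ± 0.15 (SE), about the size of its error.

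Tmem26 (chr10:68723746-68782655) encodes a transmembrane protein whose function is poorly understood. Its probe read 7.08, 5.96 and 5.48 in WT and 5.21, 5.09 and 5.41 in Zip13-KO. Every Zip13-KO array was below every WT array, but the highest knockout array was only 0.07 under the lowest WT array, and WT replicate 1 stood far above the rest. The log2 difference was -0.93 ± 0.39 (SE) and was not called, and it was -0.48 without WT replicate 1. It was -1.28, and called lower, without WT replicate 3. With normexp background correction it was -0.47, with no background correction -0.54, and in the deposited value table -0.54. Processed signals were 144, 68.4 and 48.0 in WT and 33.3, 32.5 and 39.7 in Zip13-KO, so the gene was measured near the bottom of the range.

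Tnfrsf9 (chr4:150920155-150946104) encodes CD137, a receptor of the tumour necrosis factor family that is used to sort beige precursors and is also made by activated T cells. Its brighter probe read 12.18, 12.00 and 12.14 in WT and 12.42, 12.30 and 12.45 in Zip13-KO. These values were higher on every knockout array, but the log2 difference of 0.28 ± 0.08 (SE), or 1.22-fold, was under the 1.5-fold threshold. The second probe, for the same transcript, read 5.46, 5.60 and 5.81 in WT and 4.87, 5.11 and 5.34 in Zip13-KO. It was lower on every knockout array, with a log2 difference of -0.52 ± 0.15 (SE). This probe was dim, with processed signals of 46.6, 53.0 and 60.4 in WT and 26.5, 32.9 and 37.9 in Zip13-KO, whereas those of the brighter probe were 4404 to 5341. The probes thus had opposite signs, with no overlap between the groups in either, although the second was measured near the bottom of the range.

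**Figure D2:**
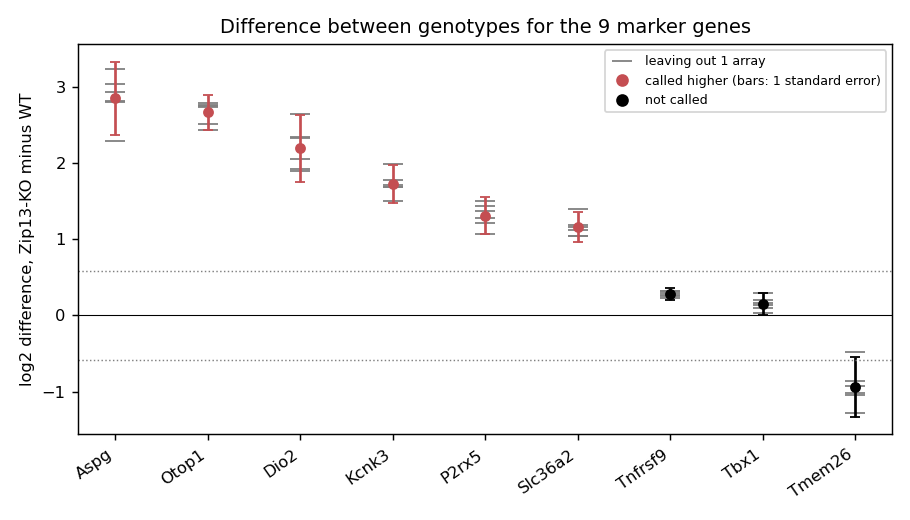
Log2 difference between Zip13-KO and WT for the brightest probe of each of the 9 genes, with bars of 1 standard error (3 arrays per genotype). Grey dashes give the difference with 1 array left out and dotted lines mark 1.5-fold. The 6 genes called higher run from 2.85 (Aspg) to 1.16 (Slc36a2), and Tnfrsf9, Tbx1 and Tmem26 lie at 0.28, 0.15 and -0.93.

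In order of difference the 6 called genes were Aspg, Otop1, Dio2, Kcnk3, P2rx5 and Slc36a2. In all 5 pairs of neighbours the bars of 1 standard error overlapped, and the differences between neighbours were not tested. In 5 of the 6 genes the knockout arrays were less spread than the WT arrays, Dio2 being the exception. WT replicate 1 was the lowest WT array in 4 of the 6 genes, and Zip13-KO replicate 3 was the lowest knockout array in 5 of them. When the fit held the line of the slide constant, so that the difference rested on Zip13-KO replicate 1 against the 3 WT arrays, the log2 differences were 2.95 for Aspg, 2.52 for Otop1, 1.29 for Dio2, 1.75 for Kcnk3, 1.37 for P2rx5 and 1.16 for Slc36a2, and 0 of the 6 were called. With that fit 0 genes were called higher and 7 lower among all 15302.

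Other heat-producing and depot-selective genes were examined in lists that, like the 9 genes, were drawn up with earlier results of these data known and are not independent evidence. Their counts stand beside the 10.3% of all genes tested that were called higher and the 8.38% called lower. Of 20 genes high in both brown and beige adipocytes, 17 were tested, 15 rose, 0 fell and 2 were not called, with a median log2 difference of 2.25 against -0.0005 over all genes. Ucp1 was at 10.68, 8.20 and 9.42 in WT and at 13.19, 15.51 and 15.07 in Zip13-KO. It rose by a log2 difference of 5.16, the largest of the list, with Zip13-KO replicate 1 again the lowest knockout array. Elovl3, a fatty acid elongase, rose by 4.84, but its probe entered the test through the Zip13-KO arrays alone. It was above background on 2 of its 3 WT arrays. WT replicate 2, at 2.36, was under the lowest signal counted as above background there (3.22), so the size of the difference is uncertain. With only probes well above background on all 6 arrays, 14 genes of the list rose. Fabp3, a fatty acid binding protein, rose by 4.77, Cpt1b, which admits fatty acids to mitochondria, by 3.56 and Cox7a1, a subunit of cytochrome c oxidase, by 3.31. Adrb3, the adrenergic receptor through which brown and beige cells are stimulated, was at 0.99 (adjusted p = 0.0782) and was not called, and the nucleoside transporter Slc29a1 was at -0.38.

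Of 11 genes reported higher in classical brown than in beige adipocytes, 10 were tested, 4 rose and 1 fell, with a median log2 difference of 0.46. Mpzl2, an adhesion molecule, rose by 1.84 (adjusted p = 0.00651). Pdk4, a kinase that restrains pyruvate oxidation, rose by 1.25 (adjusted p = 0.00775), Oplah, an oxoprolinase, by 1.01 (adjusted p = 0.00839) and Ebf3, a transcription factor, by 0.99 (adjusted p = 0.00444). Epsti1, an interferon-responsive gene, fell by 0.85 (adjusted p = 0.0121). The transcription factor Zic1, the most used marker of classical brown cells, was at 5.91, 5.69 and 5.57 in WT and at 6.03, 6.16 and 5.85 in Zip13-KO, a log2 difference of 0.29 that was not called. Among the genes not called Meox2 was the highest, at 0.46, and Fbxo31 the lowest, at -0.09, although the kept probes of Fbxo31 differed in sign.

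Of 9 genes reported higher in beige than in classical brown adipocytes, all were tested, 1 rose and 1 fell, close to the share of all genes called, and the median log2 difference was -0.27. Slc27a1, a fatty acid transport protein, rose by 1.20 (adjusted p = 0.00442), and Sp100, a nuclear body protein, fell by 0.62 (adjusted p = 0.0128). Cited1, a transcriptional co-regulator, was at 10.47, 11.07 and 9.71 in WT and at 9.69, 9.00 and 8.61 in Zip13-KO, so that the knockout arrays were all lower, with a log2 difference of -1.31 (adjusted p = 0.0523) that just missed the threshold. Shox2 was the highest of the genes not called, at 0.47. Of 10 genes reported higher in white fat, 9 were tested and 2 rose, Pank3 by 0.87 (adjusted p = 0.0348) and Ednra by 0.61 (adjusted p = 0.0431), but these calls were lost in several alternative fits. Leptin (Lep) was at 1.07 and Wfdc21 at -0.45, and neither was called.

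**Figure D3:**
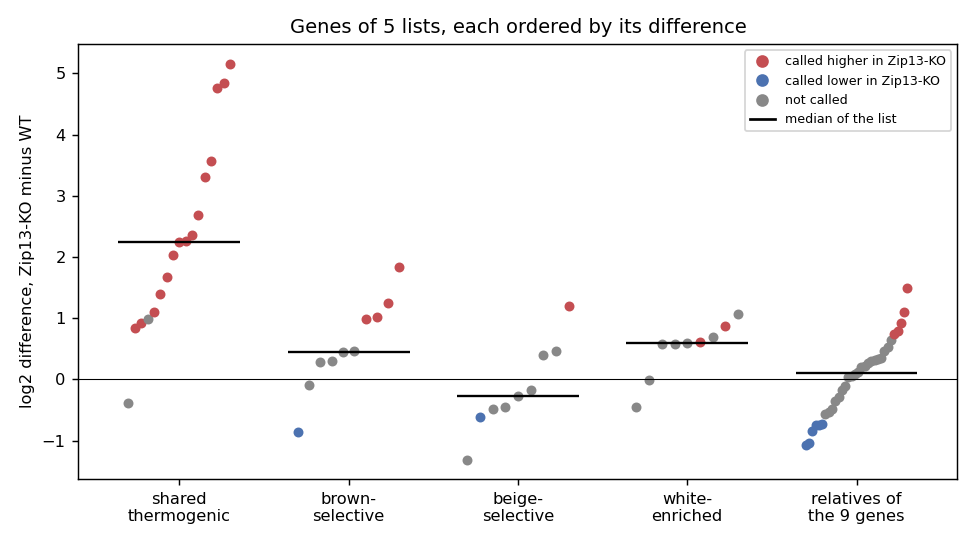
Log2 difference between Zip13-KO and WT for each tested gene of 5 lists, ordered within its list, with the list median as a black line. Red and blue points were called higher and lower, and grey points were not called. The shared thermogenic genes have a median of 2.25, the brown-selective genes 0.46, the beige-selective genes -0.27, the white-enriched genes 0.60 and the relatives of the 9 genes 0.10.

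Family and pathway relatives of the 9 genes were then compared. Of 41 relatives, 32 were tested, 5 rose and 6 fell, and the median log2 difference was 0.10. The 11 called are 34.4% of those tested, where 18.7% of all genes were called in either direction. Around Dio2, neither the deiodinase Dio1 nor the thyroid hormone receptors Thra and Thrb were called. The kept probes of Dio1 differed in sign, and the one used was above background on 2 of its 3 WT arrays. Around Kcnk3, Kcnk2 (TREK-1) rose by 1.49 (adjusted p = 0.00816), whereas Kcnk6 fell by 0.74 (adjusted p = 0.0139) and Kcnk13 by 0.73 (adjusted p = 0.00649). Kcnk7 entered the test through its WT arrays alone and did not exceed background clearly in Zip13-KO. It was at least 1.45-fold lower, the bound being set by the dimmest signal counted as above background on each array. Its adjusted p in limma, 0.0191, belongs to the log2 difference of -1.04 without that bound. Kcnk7 is counted among the 6 relatives that fell and the 11 called by that unbounded difference, since the bound is under the 1.5-fold threshold. With only probes well above background on all 6 arrays, 10 relatives were called. Otop2 and Otop3 were not above background and were not tested.

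Asns, asparagine synthetase, which makes the amino acid that Aspg breaks down, rose by 0.75 (adjusted p = 0.0118). Of the 3 relatives of Slc36a2, 0 were called, Slc36a1 being at 0.12. Among the other P2X channels P2rx6 rose by 1.09 (adjusted p = 0.0192) and P2rx7, a channel of immune cells, fell by 0.84 (adjusted p = 0.0360). Although Tbx1 itself was not called, the T-box genes Tbx2 and Tbx3 rose by 0.92 (adjusted p = 0.00504) and 0.79 (adjusted p = 0.00492). Tnfsf9, the ligand of CD137, fell by 0.75 (adjusted p = 0.0462), and Tnfrsf1b, a receptor for tumour necrosis factor, fell by 1.08 (adjusted p = 0.00492).

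Markers of the cell types of the tissue were measured in the same RNA. The counts of these markers, too, stand beside the 10.3% of all genes called higher and the 8.38% called lower. The 8 adipocyte markers had a mean log2 level of 14.8 to 15.4 over the WT arrays and 15.7 to 15.9 over the Zip13-KO arrays and 3 of 8 rose, with Pparg the highest at 1.13 and Fabp4 the lowest at 0.20. The adipocyte mean was then subtracted on each array, a scale chosen after the data were seen. There 5 of the 6 called genes were higher on every Zip13-KO array than on every WT array, and Dio2 overlapped. The share of all genes that were so on this scale was not computed, and the count is a description only. For Slc36a2 the lowest Zip13-KO array was at -1.63 and the highest WT array at -1.74. On that scale the log2 differences were 2.22 for Aspg, 2.03 for Otop1, 1.56 for Dio2, 1.09 for Kcnk3, 0.68 for P2rx5 and 0.53 for Slc36a2, which was no longer called, and those of Tbx1 and Tnfrsf9 turned to -0.48 and -0.35. This scale lowers every gene, the median of all genes to -0.63, and relative to that median the 9 genes kept the differences given above. The part of adipocyte content in these differences was not tested.

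Of 7 macrophage markers 6 fell, with a median log2 difference of -1.20 and a mean level of 12.8 to 13.4 in WT against 11.7 to 12.2 in Zip13-KO. Cd68 was the lowest at -1.87 and Itgam the highest at -0.17. Of 5 stromal progenitor markers 3 fell, with a mean level of 12.8 to 13.7 in WT against 12.3 to 12.6 in Zip13-KO, Ly6a being the lowest at -1.37 and Pdgfra the highest at -0.65. Tmem26 was lower on the same arrays, and the part of these cell types in its values was not tested.

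T cell markers bear on Tnfrsf9. Of 10 measured, 0 rose and 1 fell, Il2rb, by 0.82, close to the 8.38% of all genes called lower. Their median was -0.49, with a mean level of 11.2 to 11.7 in WT against 10.8 to 11.1 in Zip13-KO. Cd4 was the highest, at -0.14. Of 4 B cell markers 0 were called, with a mean level of 12.2 to 12.5 in WT against 11.9 to 12.0 in Zip13-KO. The inguinal depot commonly holds a lymph node. The part of lymphocytes in the values of Tnfrsf9 was not tested.

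Skeletal muscle, which also uses fatty acids at a high rate, gave 11 tested markers of 12, of which 0 were called. Their mean level was 6.42 to 7.52 in WT and 7.00 to 8.80 in Zip13-KO. The log2 differences ran from 0.15 (Mylpf) to 2.37 (Mb). Mb was above background on 2 of its 3 WT arrays, with WT replicate 1 at 1.35, so the size of its difference is uncertain. The mean of the muscle markers was highest in Zip13-KO replicate 3. The part of muscle in the values of the brown and beige marker genes was not tested. Of 8 mammary epithelium markers 4 were tested and 0 called, with mean levels of 4.49 to 5.55 in WT and 4.70 to 5.81 in Zip13-KO. Of 4 endothelial markers 1 rose, Cdh5, by 0.77, with mean levels of 10.05 to 10.1 in WT and 10.38 to 10.4 in Zip13-KO.

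**Figure D4:**
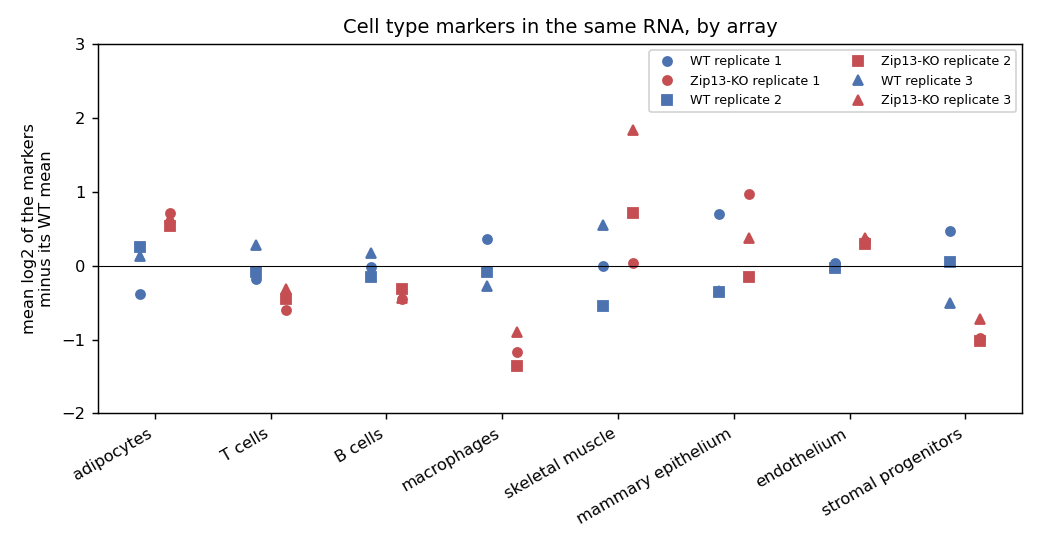
Mean log2 level of the markers of 8 cell types on each array, minus its mean over the WT arrays. Points are arrays and shapes are replicates. Adipocyte and endothelial markers lie higher on all Zip13-KO arrays, T cell, B cell, macrophage and stromal progenitor markers lie lower on all of them, and muscle and mammary markers overlap between the genotypes.

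The genes whose pattern over the 6 arrays was most like that of each marker were sought by the root mean square difference between log2 values centred on each gene, a measure that the genotype difference dominates. For Kcnk3 they were Rasl12 and Pm20d1, at 0.08 each. For Slc36a2 they were Slc25a33 (0.06) and Gm6277 (0.09), and for P2rx5 they were Cd59b (0.06) and 9330102E08Rik (0.07). The patterns of Dio2 and Aspg had no close match, the nearest being Kng1 (0.43) and Gm5907 (0.44) for Dio2 and Ciart (0.44) and Fbp2 (0.48) for Aspg. Otop1 was nearest to Gm5577 (0.22) and Sec14l4 (0.27). For Tmem26 they were Mfap5 (0.04) and Adamts2 (0.06), for Tbx1 Cyth1 (0.04) and Pla2g3 (0.05), and for Tnfrsf9 Ndrg1 and Slc22a13 (0.02 each).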

How the data were processed

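Total RNA of iWAT from 3 WT and 3 Zip13-KO samples was hybridized to Agilent SurePrint G3 mouse arrays in 1 colour, and groups were taken from the sample titles. The authors deposited Feature Extraction scanner files, whose processed signal is a background-subtracted intensity, and a value table of log2 intensities, which had the same order of probes within each array as the median signal of the same files (rank correlation 1). The 55681 probes were averaged over spots, and the processed signal was taken to log2 and quantile normalized. A probe passed on an array when most of its spots there were well above background. Kept were the 33041 probes that passed on every WT array, on every Zip13-KO array, or on both sets. A probe could thus enter through a single genotype. Among the named genes, that of Kcnk7 entered through WT, and those of Elovl3, Mb and Dio1 through Zip13-KO. Symbols came from unversioned RefSeq accessions in the mouse gene table and were found for 50.9% of probes, and the brightest kept probe stood for a gene. Genes were tested with limma 3.58.1 (lmFit, eBayes) in R 4.3.3, over all genes at once, with Benjamini-Hochberg adjustment. The limma fit and the calling rule were tried on simulated gene values with independent noise and planted changes. That trial did not cover dim probes, the filter, the normalization or the layout of the slide. The genes and lists were chosen with earlier results of these data known. Named were all 9 genes and their probes, Slc39a13, up to 5 called genes per list and direction, the highest and lowest genes not called, every called relative, the extreme cell type markers and the 2 genes most like each member. A few further values were named after being seen, namely Zic1, Slc36a1 and the relatives of Dio2. The study's methods also quantile normalized log2 intensities but tested them by a t-test combined with a median-ratio test on genes passing a mixture-model filter. Here the t-test alone is an alternative, and the median-ratio test and that filter were not run. Other alternatives were other scaling, background correction, filters, probe rules, tests, blocks and single arrays left out.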

Additional observations from a re-analysis of the deposited data

How the results depend on the processing

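The call of 6 genes higher held in every fit that left out 1 array (6 to 6 genes). It was 7 without a fold threshold, 5 on the adipocyte scale and with the adjusted t-test, which is only the t-test part of the study's combined test, 3 at an adjusted p under 0.01 and 0 with the line of the slide as a block, where the shared thermogenic, brown-selective, beige-selective, white-enriched and relatives lists also gave 0. In that block Zip13-KO replicates 2 and 3 lie alone in their line, so it rests on 1 knockout array. The count of genes lower went from 0 to 1 (Tmem26) with the adipocyte mean subtracted, at -1.57, and without WT replicate 3, at -1.28, and it ran from 0 to 1 when single arrays were left out. Subtracting the adipocyte mean lowered the median of all genes to -0.63, and 7956 of all genes were called lower on that scale. Dio2 missed the adjusted threshold with that t-test, which borrows no variance between genes. Tnfrsf9 turned to -0.12 with the mean of its probes, whose signs differ, and to -0.35 on the adipocyte scale, as Tbx1 did to -0.48. Without a fold threshold the beige-selective count was 3. The white-enriched count of 2 was 4 with 75th percentile scaling and with the deposited table, and 0 without a filter on dim probes, with the adjusted t-test, with the replicate block and at an adjusted p under 0.01. It ran from 0 to 4 over single arrays left out, being 4 without WT replicate 2, 1 without WT replicate 1 or Zip13-KO replicate 2, and 0 without any of the others. The relatives called were 7 with the adjusted t-test, 5 at an adjusted p under 0.01, and 7 to 10 with single arrays left out (7 without Zip13-KO replicate 1 or 2). The shared thermogenic count ran from 11 to 15, the brown-selective count from 4 to 4 and the beige-selective count from 1 to 1. Deviations of same-numbered arrays from their group means had r = -0.02, 0.04 and -0.08, and those of differently numbered arrays ran from -0.17 to 0.18. This check gave no sign that the numbers pair samples, but it cannot exclude a pairing. With the replicate block 6 of the 9 genes were called higher, with 1278 genes higher and 1051 lower over all. The counts of 1576 higher and 1282 lower over all genes became 1008 and 721 with the adjusted t-test, 707 and 505 at an adjusted p under 0.01, 2952 and 2330 with no fold threshold, 238 and 7956 on the adipocyte scale, 0 and 7 with the line block, 969 and 778 without Zip13-KO replicate 1, and 1025 and 787 without Zip13-KO replicate 2. Few arrays and dim probes (Dio2, Tmem26, the second Tnfrsf9 probe) limit the precision.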
